A study of Homo sapiens with 16 samples.

Results

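The comparison described here was made in HepG2 cells labelled as cultured for 12 h. It set 4 arrays of cells given a recombinant adenovirus expressing GPI-PLD against 4 arrays of cells given one expressing LacZ. All array probe sets outside the controls entered, and the members are therefore the 8 arrays of 12 h among 16 arrays in the series, described across genes. The other 8 arrays carry the same 2 viruses at 6 h and are used only where the times are set against each other. HepG2 is a human hepatoma line and is the single cell line of the study, so every group shares it. Both viruses were recombinant adenoviruses, so the LacZ cells, which make bacterial beta-galactosidase, share the vector with the GPI-PLD cells. The sources used here give no promoter for either insert, no dose of virus, and neither the species of the GPI-PLD sequence nor the part of it that was carried. Each array was hybridised with 10 ug of total RNA. Arrays are numbered in deposited order, and the labels do not say whether each array was a culture of its own, so the p-values reflect only how these arrays varied, which may be technical.

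GPI-PLD is the phospholipase D that cuts glycosylphosphatidylinositol (GPI) anchors, the glycolipids that hold a class of proteins on the outer face of the cell membrane. Its action frees the anchored protein with the glycan part of the anchor and leaves phosphatidic acid in the membrane. The enzyme is encoded by GPLD1, is made largely in liver, and circulates in plasma bound to lipoproteins that carry apolipoprotein A-I. HepG2 cells keep many functions of hepatocytes, including secretion of albumin, transferrin and apolipoprotein B, and also make alpha-fetoprotein and glypican-3, which adult liver makes little of.

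The cells read as hepatoma cells under both viruses. The hepatocyte and hepatoma marker list had 12 of its 13 genes on the array above the filter, and its summed signal was 525548 to 573519 on the LacZ arrays and 545152 to 620073 on the GPI-PLD arrays. Endothelial markers had 2 of 10 genes above the filter, with summed signals of 1083 to 1502 under LacZ and 1164 to 1686 under GPI-PLD. Erythroid markers had 1 of 4 genes (649 to 1276 and 681 to 1300), fibroblast and stellate markers 6 of 13 (4532 to 4919 and 4873 to 5585), and leukocyte markers 4 of 12 (11302 to 15016 and 10683 to 14013), the leukocyte sum being mostly lysozyme, LYZ. Cholangiocyte markers, several of which hepatoma lines also make, had 4 of 6 genes (37234 to 41094 and 35384 to 39231). The ranges of the 2 viruses overlapped in each of these lists. The GPI-PLD arrays were less alike than the LacZ arrays: their mean correlation with the other arrays of their group was 0.942 to 0.945 against 0.961 to 0.962, and the median gene had an SD of 0.238 on the log2 scale against 0.200. Array medians were 338.1 to 377.6 under GPI-PLD and 323.0 to 352.5 under LacZ. The part of these differences in the results below was not tested.

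GPLD1 itself, the gene of the enzyme, did not read higher on the GPI-PLD arrays at any of its 5 probe sets by more than the spread between arrays. At probe set 206264_at the LacZ arrays read 336.1, 174.0, 162.0 and 375.6 and the GPI-PLD arrays 283.5, 223.0, 306.9 and 352.1. At probe set 217405_x_at they read 323.1, 130.0, 369.4 and 451.7 under LacZ and 392.9, 329.4, 283.8 and 307.2 under GPI-PLD. At both sets the GPI-PLD arrays lay within the range of the LacZ arrays. The 95% interval of the fold, GPI-PLD over LacZ, was 0.734 to 1.74 at the first and 0.682 to 1.73 at the second (limma over all 22215 probe sets, adjusted p = 0.936 and 0.964). The other 3 probe sets were dim: 206265_s_at read 76.3 to 233.8 under LacZ and 24.9 to 332.2 under GPI-PLD, 206266_at 18.1 to 45.1 and 24.3 to 57.3, and 215554_at 25.2 to 124.8 and 4.0 to 164.1. Their differences were -0.33 ± 0.44, 0.07 ± 0.22 and -0.18 ± 0.38 (log2, SE). Because the insert is not described, a probe set outside it would check nothing, and these values do not check the labels. The names GPI-PLD and LacZ therefore stand throughout for what the arrays are labelled.

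No gene passed the test at 12 h. Of 8102 genes tested, limma with Benjamini-Hochberg adjustment called 0 (0% of the genes tested) at an adjusted p under 0.05, and the smallest adjusted p was 0.159. The fit without trend and robust estimation also called 0. At an unadjusted p under 0.05 there were 584 genes, 7.21% of those tested: 299 higher in GPI-PLD cells (3.69%) and 285 lower (3.52%). The fit without trend and robust estimation gave 554 genes. When each array was scaled to its 75th percentile, 354 of 577 such genes were higher and 223 lower, against 299 and 285 as deposited. The groups did not overlap, every array of one virus lying above every array of the other, for 173 genes that were higher (2.14%) and 150 that were lower (1.85%). For a single gene of that kind, 4 arrays against 4 allow an exact two-sided permutation p no smaller than 0.0286.

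The intervals give the range of differences that the arrays allow, gene by gene and without adjustment for the number of genes. They are not the limit of what the adjusted test could call. The median log2 difference over all genes was 0.01, and the 5th and 95th percentiles were -0.37 and 0.44. For 4802 genes, 59.3% of those tested, the whole 95% interval lay within 1.5-fold in either direction, for 6969 (86.0%) within 2-fold, and for 7946 (98.1%) within 3-fold. Estimates past 2-fold were found for 29 genes higher and 19 lower in GPI-PLD cells, among dim genes. Folds and log2 differences here are taken on signal + 63, which understates the change of dim genes. The plot of difference against level shows this spread narrowing as the signal rises.

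**Figure D1:**
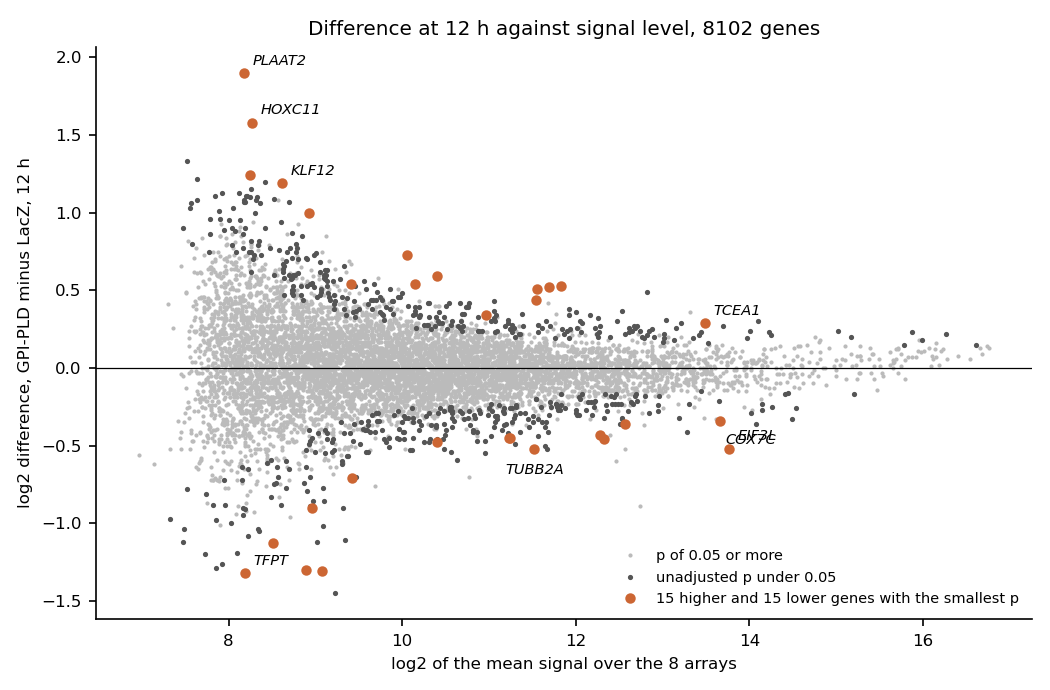
Log2 difference at 12 h (GPI-PLD minus LacZ, y axis) against the log2 of the mean signal over the 8 arrays (x axis), 1 point per tested gene; darker points have an unadjusted limma p under 0.05 and orange points are the 15 higher and 15 lower genes with the smallest p. The spread is widest among dim genes, where HOXC11, PLAAT2, KLF12 and TFPT lie, and EIF3L, COX7C and TCEA1 lie among bright ones.

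EIF3L had the smallest p of the genes lower in GPI-PLD cells. EIF3L, a subunit of the initiation factor that recruits the small ribosomal subunit to mRNA, read 16616.1, 18019.4, 15746.4 and 15440.8 on the LacZ arrays and 10247.4, 11309.4, 11754.0 and 12423.1 on the GPI-PLD arrays. All 4 GPI-PLD arrays lay below all 4 LacZ arrays, with a wide gap between the groups. The difference was -0.52 ± 0.10 (log2, SE; limma adjusted p = 0.159), and over the other settings tried the adjusted p ran from 0.0765 to 0.528. The other 11 subunits of the factor measured here, which act in the same complex, did not share it. Of 12 EIF3 genes tested 7 were higher and 5 lower with a median of 0.02, the next largest difference was 0.12 ± 0.09 for EIF3D, the cap-binding subunit, and EIF3L was the 1 gene whose arrays did not overlap, beside 1.85% lower in that way over all genes.

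TUBB2A encodes a beta tubulin, a building block of microtubules. Its LacZ arrays read 3298.8, 3903.9, 3267.7 and 3354.0 and its GPI-PLD arrays 2273.7, 2362.1, 2021.5 and 3008.6. The groups did not overlap, although the fourth GPI-PLD array came close to the LacZ arrays. The difference was -0.52 ± 0.11 (adjusted p = 0.159), and without that array it was -0.62 with an adjusted p of 0.0181, which passes. With other single arrays left out the TUBB2A difference shrank to as little as -0.44. Over the settings tried its limma adjusted p rose to 0.544. Another beta tubulin, TUBB, differed the other way: 27451.9, 30557.8, 31377.2 and 33305.4 under LacZ against 35406.6, 37528.8, 36328.8 and 35166.5 under GPI-PLD, again without overlap (0.24 ± 0.08, adjusted p = 0.497). Its 2 other probe sets had the same sign (0.16 ± 0.09 and 0.13 ± 0.08). TUBB2B, a close copy of TUBB2A whose transcripts an oligonucleotide array may not fully separate from it, read 590.2 to 834.5 under LacZ and 740.0 to 949.2 under GPI-PLD (0.17 ± 0.17). Of 14 tubulin genes 9 were higher and 5 lower, with a median of 0.13 that was 0.03 without GPI-PLD replicate 2 and 0.06 without LacZ replicate 3. For the pair that differed in opposite directions, the bases before the annotated starts are given here as RefSeq holds them (GRCh38.p14), so that the upstream letters of the 2 genes can be set side by side. TUBB2A lies on the minus strand (chr6:3157545-3157794) and TUBB on the plus strand, where the table holds 2 starts (chr6:30720102-30720351 and chr6:30721388-30721637). Each run has 250 bases, 5′ to 3′ on the gene's strand, ending at the base before the start, and capitals mark the motifs searched on both strands.
TUBB2A: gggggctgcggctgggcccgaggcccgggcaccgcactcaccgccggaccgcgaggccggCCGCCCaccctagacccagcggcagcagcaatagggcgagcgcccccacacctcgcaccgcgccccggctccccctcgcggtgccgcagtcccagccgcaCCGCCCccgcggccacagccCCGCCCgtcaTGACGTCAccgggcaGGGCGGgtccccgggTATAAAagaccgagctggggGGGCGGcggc
TUBB, first start: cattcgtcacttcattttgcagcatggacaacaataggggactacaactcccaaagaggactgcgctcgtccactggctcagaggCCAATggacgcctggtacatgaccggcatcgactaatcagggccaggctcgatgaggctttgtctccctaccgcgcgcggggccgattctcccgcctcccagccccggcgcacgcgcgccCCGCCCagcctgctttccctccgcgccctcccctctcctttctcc
TUBB, second start: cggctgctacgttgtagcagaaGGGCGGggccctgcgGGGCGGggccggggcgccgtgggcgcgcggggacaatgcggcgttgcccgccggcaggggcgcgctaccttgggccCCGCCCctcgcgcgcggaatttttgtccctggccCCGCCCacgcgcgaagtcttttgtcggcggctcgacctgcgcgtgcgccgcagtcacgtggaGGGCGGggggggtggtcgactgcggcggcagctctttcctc
The motifs were the TATA box (TATAAA), the CCAAT box (CCAAT), the GC box (GGGCGG) and the cyclic AMP response element (TGACGTCA), and in no window did 2 of them overlap. The TUBB2A window held 1 TATA box, 5 GC boxes and 1 cyclic AMP response element. The TUBB windows held 1 CCAAT box with 1 GC box at the first start, and 5 GC boxes at the second. Of 35116 RefSeq windows of that length 10.7% held the TATA letters, 32.0% the CCAAT letters, 42.6% the GC box and 1.65% the response element. GC content was 79.2% in the TUBB2A window, 63.6% and 75.6% in those of TUBB, and 58.0% in the median window. These are matches of letters, and they say nothing of which factor was bound.

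**Figure D2:**
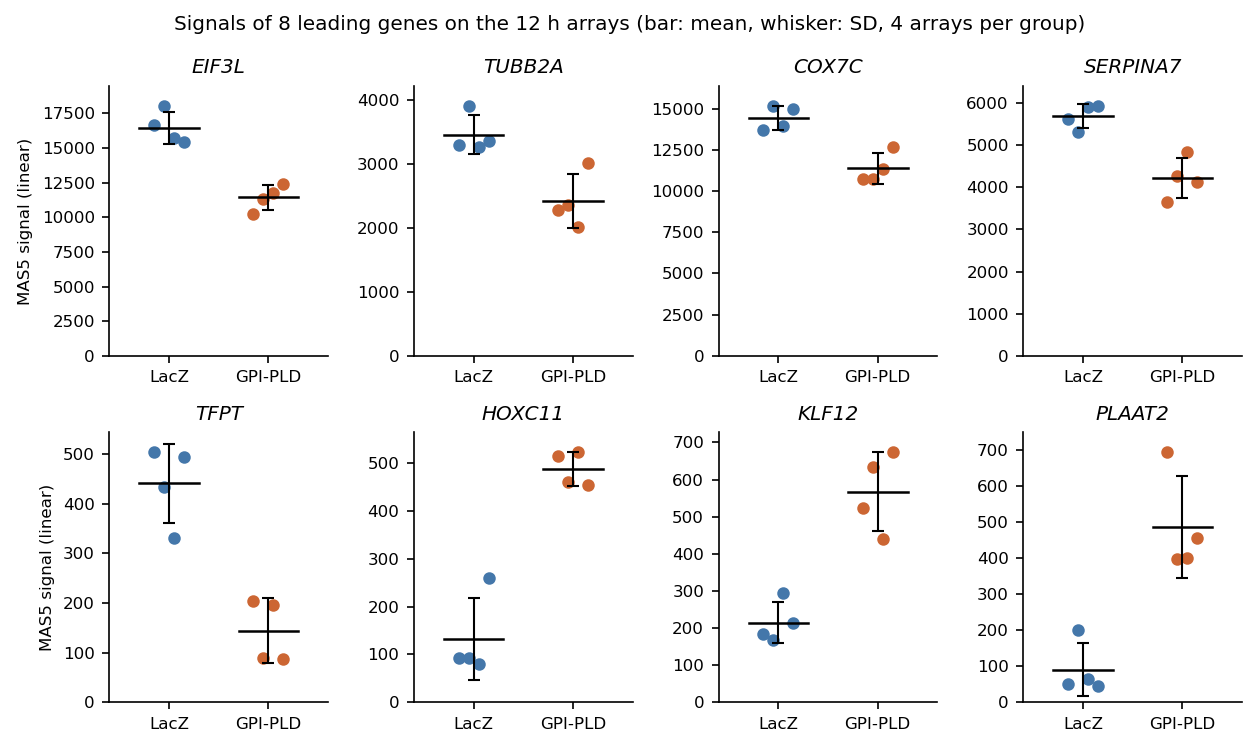
MAS5 signal (linear scale, y axes from 0) of 8 genes on the 4 LacZ and 4 GPI-PLD arrays of 12 h, with the mean (bar) and SD (whisker) of each group. In each of the 8 genes no GPI-PLD array lies within the range of the LacZ arrays, and for TUBB2A the nearest arrays of the groups read 3008.6 and 3267.7.

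DPYSL2, a microtubule-binding protein of growing cell processes, read 6562.7 to 7352.2 on the LacZ arrays and 4392.1 to 5879.3 on the GPI-PLD arrays, with no overlap (-0.36 ± 0.09). COBLL1, an actin-binding protein, read 2532.5 to 3043.5 and 1782.2 to 2332.8, also apart (-0.45 ± 0.11), but its other probe sets differed the other way (0.10 ± 0.11 and 0.17 ± 0.28 at the 2 that passed the filter). DYNLL1, a light chain of the dynein motor, read 17243.1 to 19322.8 and 13949.3 to 15943.1, apart as well (-0.29 ± 0.09, adjusted p = 0.492). SSH3, a phosphatase that activates the actin-severing protein cofilin, was 853.2, 681.9, 557.0 and 936.8 under LacZ and 92.7, 184.9, 654.8 and 343.9 under GPI-PLD. GPI-PLD replicate 3 lay among the LacZ arrays, and without it the difference of -1.31 ± 0.31 became -1.69 with an adjusted p of 0.0182. With other single arrays left out the SSH3 difference shrank to as little as -0.95. Over the settings tried its limma adjusted p rose to 0.629. A second SSH3 probe set gave -0.30 ± 0.22. SSH1, its relative, was higher without overlap at 610.6 to 660.3 against 736.1 to 822.3 (0.25 ± 0.16). As a list, 25 actin filament regulators had 13 higher and 12 lower members with a median of 0.01, and 28 genes of tubulin folding and microtubule regulation 12 higher and 16 lower with a median of -0.01, both near the 0.01 of all genes.

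HOXC11, a homeobox factor of posterior body patterning, read 91.8, 93.7, 81.2 and 259.4 under LacZ and 513.9, 459.9, 521.5 and 453.7 under GPI-PLD, 3.0-fold higher (1.58 ± 0.32, adjusted p = 0.159). The groups stood apart, with 1 LacZ array above the other 3. Neither of the other homeobox C genes tested did so: HOXC10 differed by -0.23 ± 0.48 and HOXC4 by 0.04 ± 0.35. KLF12, a repressor of the Kruppel-like family, read 184.2, 167.6, 293.3 and 214.9 against 524.6, 633.5, 440.1 and 673.0 (1.19 ± 0.27), without overlap. Its 3 other probe sets, all dim, gave -0.17 ± 0.38, -0.26 ± 0.32 and -0.02 ± 0.43. Of 12 Kruppel-like and SP genes tested 9 were higher and 3 lower, with a median of 0.13 that was 0.06 without GPI-PLD replicate 1 and 0.27 without LacZ replicate 1, and KLF12 alone stood apart, beside 2.14% of all genes. TFPT, a subunit of the INO80 chromatin remodelling complex, read 503.2, 433.4, 331.6 and 495.0 under LacZ and 204.9, 89.3, 196.3 and 86.6 under GPI-PLD, a fold of 0.400 (-1.32 ± 0.27, adjusted p = 0.159). Each GPI-PLD array was below each LacZ array. The 12 INO80 genes tested had 4 higher and 8 lower members and a median of -0.07, with TFPT the 1 that stood apart, beside 1.85% of all genes.

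Among brighter genes of this kind TCEA1, which rescues stalled RNA polymerase II, read 10064.3 to 10998.4 under LacZ and 11970.4 to 13106.2 under GPI-PLD, apart (0.29 ± 0.08). NFE2L1, a transcription factor of proteasome genes, read 2505.0 to 3521.2 and 3526.5 to 4918.1 (0.53 ± 0.14), so that the groups were separated by a few units, and its other probe sets above the filter gave 0.08 ± 0.11 and 0.29 ± 0.11. The 33 proteasome genes had a median of -0.02, with 14 higher and 19 lower. DPF2, a subunit of BAF chromatin remodellers, overlapped through 1 LacZ array of 1464.9 (0.59 ± 0.16). SETD1B, a histone H3 lysine methyltransferase, overlapped through 1 LacZ array of 1009.3 against a lowest GPI-PLD array of 957.0 (0.73 ± 0.21). RBM38, an RNA-binding protein that acts on cell cycle mRNAs, read 459.9 to 615.7 and 739.5 to 894.5, apart (0.54 ± 0.15). HMGA1, a chromatin architectural protein, stood at 3016.8 to 4763.4 under LacZ and 2267.8 to 3004.1 under GPI-PLD, apart by a small gap (-0.52 ± 0.17), with -0.16 ± 0.33 at its other probe set.

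A dim gene of phospholipid metabolism, PLAAT2, was among the leading genes by fold, while the list it belongs to had a median of 0.00. PLAAT2, a phospholipase and acyltransferase, read 52.5, 201.9, 65.6 and 45.5 on the LacZ arrays and 694.1, 397.6, 399.7 and 455.8 on the GPI-PLD arrays, 3.74-fold higher with a 95% interval of 1.98 to 7.07 (1.90 ± 0.44, adjusted p = 0.345). No array of one virus lay within the range of the other. The mean of PLAAT2 on these LacZ arrays, 91.38, lay under the filter signal of 188.1, and that on the GPI-PLD arrays was 486.8. At 6 h the means were 272.8 under LacZ and 210.2 under GPI-PLD. The filter therefore drew on the same GPI-PLD arrays that the fold compares. Averaged over the other arrays in the way the filter averages, PLAAT2 lies under 188.1. It was thus tested only through these GPI-PLD arrays, and neither the fold nor the interval allows for this. The 2 other probe sets of PLAAT2, which did not pass the filter, gave 0.36 ± 0.43 and -0.03 ± 0.35. Its relative PLAAT3, a phospholipase abundant in adipocytes, differed the other way: 321.2, 268.3, 282.8 and 390.9 against 64.9, 120.6, 192.6 and 57.9 (-1.2 ± 0.40, adjusted p = 0.497). PLAAT3 stood apart too, and the third member tested, PLAAT4, differed by -0.08 ± 0.35. The enzymes of phosphatidic acid and diacylglycerol metabolism, 20 tested, had 10 higher and 10 lower members and a median of 0.00. Among them the phospholipases D PLD1 and PLD2 differed by -0.04 ± 0.15 and 0.13 ± 0.23, and the phosphatase gene PLPP3, which turns phosphatidic acid into diacylglycerol, by -0.33 ± 0.19. Of 9 protein kinase C and D genes, which include sensors of diacylglycerol, 5 were higher and 4 lower, none apart, with PRKCZ at -0.41 ± 0.14 and PRKCE at 0.94 ± 0.35. Their differences ran from -0.88 to 0.94. At an unadjusted limma p under 0.05 there were 1 higher and 2 lower, beside 3.69% and 3.52% of all genes. The 25 immediate early genes had 15 higher and 10 lower members and a median of 0.06, or 0.01 without LacZ replicate 1 or 3 or GPI-PLD replicate 2. PHLDA1, one of them, read 6539.6 to 6877.3 and 7273.2 to 8563.7, apart (0.21 ± 0.08).

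The proteins that carry the anchor and the enzymes that build it were measured by 27 and 24 genes. Of the GPI-anchored proteins 18 stood on the higher side and 9 on the lower under GPI-PLD (median 0.09). The arrays did not overlap for 2, both higher, beside 2.14% of all genes. These were CD48, an adhesion receptor of leukocytes, at 257.4, 370.0, 348.9 and 293.1 against 738.8, 426.3, 761.3 and 371.3 (0.70 ± 0.29), and PLAUR, the urokinase receptor, at 273.6 to 427.0 against 443.1 to 636.8 (0.47 ± 0.22). For CD48 the lowest GPI-PLD array barely exceeded the highest LacZ array, and both other PLAUR probe sets above the filter had the opposite sign (-0.73 ± 0.47 and -0.56 ± 0.45). The GPI-anchored proteins with bright signals showed small differences: GPC3, glypican-3, read 9491.0 to 12729.1 and 10233.7 to 13877.1 (0.12 ± 0.12), and CD59, the inhibitor of complement lysis, 5158.9 to 5803.2 and 4790.6 to 5553.8 (-0.14 ± 0.08), both overlapping. Of the anchor synthesis genes 10 were higher and 14 lower with a median of -0.05. PIGA, of the first step of anchor synthesis, was lower without overlap (729.6 to 935.2 against 633.2 to 715.8, -0.25 ± 0.17), and PGAP3, which remodels the lipid part of the anchor, higher without overlap (781.9 to 869.3 against 895.3 to 1158.0, 0.27 ± 0.15). PIGN, an ethanolamine phosphate transferase of anchor synthesis, differed by -1.02 ± 0.46, with 1 GPI-PLD array far below the other 3, which read 400.1 to 611.5 against 552.7 to 822.3 under LacZ.

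SERPINA7, the thyroxine-binding globulin of plasma, read 5620.3, 5322.4, 5898.4 and 5927.7 under LacZ and 3653.5, 4266.4, 4831.6 and 4125.9 under GPI-PLD, apart (-0.43 ± 0.11, adjusted p = 0.364). C1S, a protease of the first complement component, read 535.0 to 713.6 and 200.6 to 463.2, apart (-0.90 ± 0.22). ABAT, the aminobutyrate transaminase, read 5639.1 to 6663.7 and 3464.8 to 5067.1, apart (-0.46 ± 0.11), but its other probe sets gave 0.04 ± 0.10 and -0.10 ± 0.16. The tyrosine breakdown enzymes HPD and HGD were lower without overlap, HPD at 3136.9 to 4670.3 against 2443.3 to 3013.1 (-0.35 ± 0.13) and HGD at 2367.6 to 2847.5 against 2020.7 to 2336.0 (-0.26 ± 0.11), HGD's other sets having either sign (-0.13 ± 0.19 and 0.15 ± 0.14). TAT, the aminotransferase that begins tyrosine breakdown, stood on the other side, higher without overlap (0.38 ± 0.21). With ABAT, these made 1 higher and 3 lower separated genes among 27 of amino acid breakdown and the urea cycle, beside 2.14% and 1.85% of all genes, and the list had 13 higher and 14 lower members with a median of -0.01. The 42 secreted plasma proteins divided into 16 higher and 26 lower with a median of -0.06.

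SLC2A2, the low-affinity glucose transporter of hepatocytes, read 1605.1, 1435.8, 1523.0 and 1779.7 against 1419.0, 927.8, 1012.9 and 1149.6, apart by a small gap (-0.48 ± 0.13, adjusted p = 0.369). SLC2A3, a high-affinity transporter, was lower in the same way (2601.8 to 3436.3 against 1711.3 to 2545.6, -0.41 ± 0.16), and its other probe sets gave -0.35 ± 0.24 and 0.04 ± 0.13. SLC2A1, the transporter of most cell lines, differed by 0.19 ± 0.09 with overlap. The 27 genes of glycolysis and gluconeogenesis had 9 higher and 18 lower members, a median of -0.07, and 3 that stood apart, all lower, beside 1.85% of all genes: SLC2A2, SLC2A3 and UGP2, of glycogen synthesis (-0.15 ± 0.08). At an unadjusted p under 0.05 the list had 3 higher and 2 lower genes, beside 3.69% and 3.52% of all genes. The higher ones were SLC2A1, PFKM, a phosphofructokinase (278.1 to 530.2 against 481.2 to 891.0, 0.68 ± 0.26), and PCK2, the mitochondrial PEP carboxykinase (5255.1 to 6597.7 against 6430.4 to 7149.8, 0.23 ± 0.09), each with overlap. BLVRB, biliverdin reductase B, read 792.5 to 942.0 and 366.3 to 718.9, apart (-0.71 ± 0.19).

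Genes of the respiratory chain lay mostly on the lower side by small amounts, unevenly over its complexes. Of 28 complex I subunits 7 were higher and 21 lower with a median of -0.10, of 3 complex II subunits all were lower (median -0.23), and of 16 ATP synthase genes 4 were higher and 12 lower (median -0.09). Complex III had 3 higher and 4 lower (median -0.01) and complex IV 5 and 7 (-0.03), both nearer the 0.01 of all genes. Lower members with an unadjusted p under 0.05 numbered 4 in complex I, 2 in complex II, 1 in complex III, 2 in complex IV and 2 in ATP synthase, with 0 higher members, beside 3.52% lower over all genes. COX7C, a small subunit of complex IV, led them: 13673.8, 15155.9, 13959.6 and 14981.4 under LacZ against 10748.5, 10708.9, 11364.4 and 12680.7 under GPI-PLD, apart (-0.34 ± 0.08, adjusted p = 0.345). Its other probe sets gave -0.08 ± 0.13 and 0.03 ± 0.13. NDUFB8, a complex I subunit, was also apart (6014.8 to 7757.5 against 4879.8 to 5608.7, -0.33 ± 0.10), with other sets at 0.12 ± 0.12 and 0.09 ± 0.23. NDUFB3 and NDUFB2, of the same complex, and UQCR11, of complex III, were lower without overlap at -0.18 ± 0.09, -0.12 ± 0.08 and -0.23 ± 0.10. SDHD, a membrane anchor of complex II, overlapped: its LacZ arrays read 2243.7 to 2818.9, and its GPI-PLD arrays 1471.9, 2405.8, 1727.9 and 2289.6 (-0.40 ± 0.13).

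The array values of these lists show how far single arrays carried the shift. Taking each gene against its LacZ mean, the median complex I gene stood at -0.02 to 0.01 on the LacZ arrays and at -0.16, -0.09, -0.11 and -0.02 on the GPI-PLD arrays, so the fourth GPI-PLD array lay with the LacZ arrays. Because the LacZ mean comes from the same LacZ arrays, their range is narrowed, which favours separation. The same holds for the array values of the lists below. For the 3 complex II genes the LacZ arrays stood at -0.10 to 0.04 and the GPI-PLD arrays at -0.53, -0.07, -0.06 and -0.17, and without GPI-PLD replicate 1 the median difference was -0.12. For ATP synthase the LacZ arrays stood at -0.04 to 0.03 and the GPI-PLD arrays at -0.10, -0.01, -0.11 and -0.11, where the second lay with the LacZ arrays. The tricarboxylic acid cycle, which feeds the chain, had 7 higher and 13 lower of 20 genes and a median of -0.05. IDH1, the cytosolic isocitrate dehydrogenase, read 19535.9 to 23299.4 and 15436.0 to 19229.8 there, apart (-0.25 ± 0.09). The 21 respiratory chain assembly factors (11 higher, 10 lower, median 0.01) and 49 mitochondrial ribosomal proteins (21 higher, 28 lower, median -0.01) lay near all genes.

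**Figure D3:**
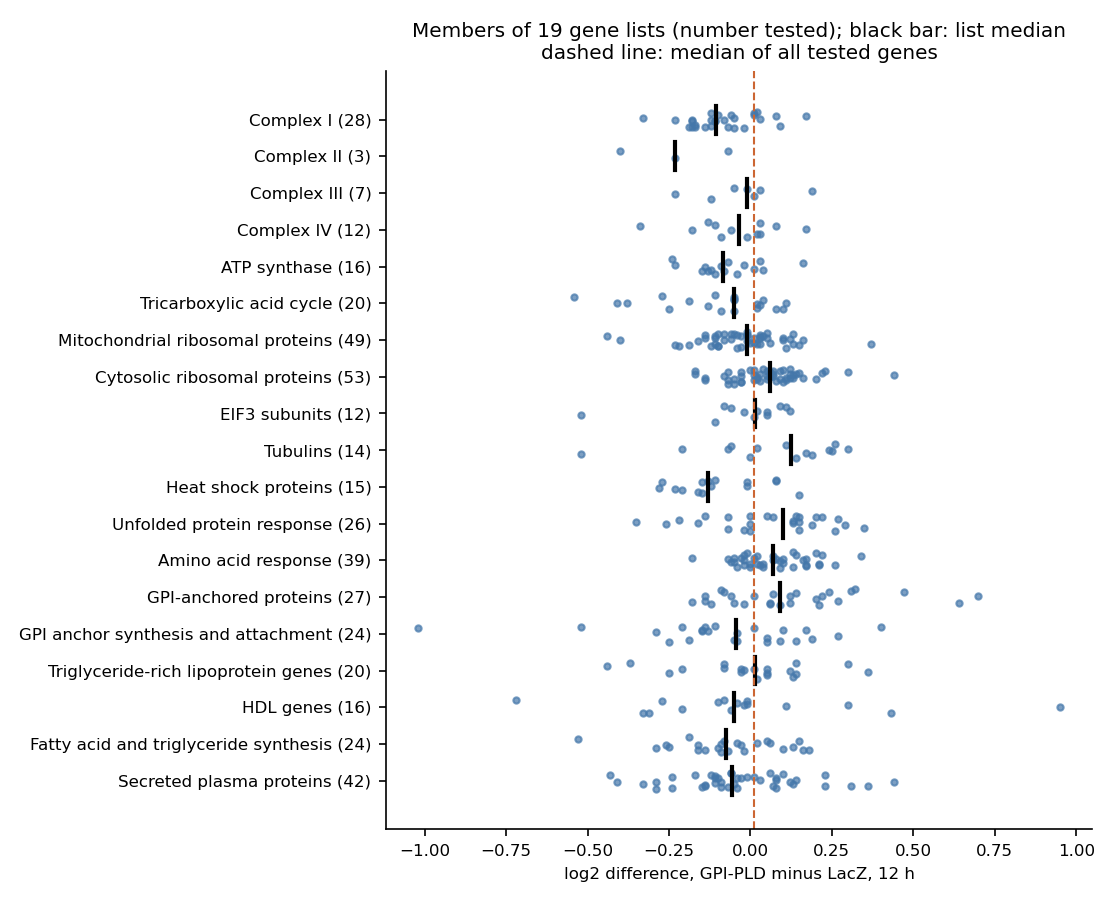
Log2 difference at 12 h (x axis) of each tested member (points) of 19 gene lists, with the list median (black bar) and the median of all tested genes (dashed line, 0.01). Medians of complex I, ATP synthase and heat shock proteins lie at -0.10, -0.09 and -0.13, those of cytosolic ribosomal, amino acid response and unfolded protein response genes at 0.06, 0.07 and 0.10.

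Of 53 cytosolic ribosomal protein genes 38 were higher and 15 lower, with a median of 0.06 that dropped to 0.01 after quantile normalization (30 higher, 23 lower) and to 0.03 without LacZ replicate 1 or GPI-PLD replicate 4. Of these 4 stood apart, all higher, beside 2.14% of all genes. RPL27A, of the large subunit, read 2416.2, 2968.6, 2316.0 and 2379.5 under LacZ and 3518.9, 3036.0, 3623.3 and 3542.5 under GPI-PLD (0.44 ± 0.12, adjusted p = 0.425), and RPS18, of the small subunit, 66717.6 to 78336.0 and 79031.2 to 99319.6 (0.22 ± 0.09). The other 2, RPS10 and RPL39, stood at 0.15 ± 0.07 and 0.12 ± 0.07, and were named after their values were seen. Ribosomal protein genes have many processed pseudogenes, whose transcripts may not be told apart from those of the parent gene by these probes. The amino acid response genes, which cells switch on when amino acids run short, had 28 higher and 11 lower of 39 and a median of 0.07, or 0.04 without GPI-PLD replicate 2, 3 or 4. TRIB3, a pseudokinase of that response, read 16726.7 to 19261.9 and 19918.1 to 22142.7, apart (0.21 ± 0.08), and SLC7A1, a transporter of basic amino acids, 7779.2 to 9061.9 and 8528.1 to 10675.1 (0.26 ± 0.09), overlapping through the fourth GPI-PLD array. By array, the median gene of that list stood at -0.07, 0.11, -0.01 and -0.02 under LacZ and at -0.02, 0.16, 0.06 and 0.08 under GPI-PLD, and the groups overlapped.

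The unfolded protein response genes had 17 higher and 9 lower of 26, with a median of 0.10 that was 0.04 without GPI-PLD replicate 1 or without replicate 2. By array their median gene stood at -0.04 to 0.04 under LacZ and at 0.11, 0.13, -0.05 and 0.05 under GPI-PLD, where replicate 3 lay below every LacZ array. HSPA5, the main chaperone of the endoplasmic reticulum, read 31166.4 to 37911.5 under LacZ and 45617.5, 37501.6, 37343.9 and 37837.7 under GPI-PLD (0.20 ± 0.08), so that 1 GPI-PLD array lay above and 3 lay inside the LacZ range. OS9, a lectin of endoplasmic reticulum quality control, was lower without overlap (4390.0 to 5326.6 against 3854.2 to 4285.7, -0.22 ± 0.09). The 15 cytosolic and mitochondrial heat shock genes tended the other way, 3 higher and 12 lower with a median of -0.13. HSPH1, a partner of HSP70, read 4552.4 to 5340.8 and 3952.8 to 4067.5, apart (-0.27 ± 0.10), whereas HSP90AB1, the constitutive HSP90, read 49375.1 to 56133.5 and 57532.3 to 60366.5, apart in the higher direction (0.15 ± 0.07).

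Lipoprotein and lipid genes, which bear on a plasma enzyme that travels with lipoproteins, held 5 separated genes in the 4 lists given here, 2 higher and 3 lower, beside 2.14% and 1.85% of all genes. Further lipid lists, of fatty acid oxidation (27 genes tested) and sterol control (14 genes tested), held 0 separated genes. Of 20 genes of triglyceride-rich lipoproteins 11 were higher and 9 lower (median 0.01), of 16 HDL genes 4 and 12 (-0.05), of 24 genes of fatty acid and triglyceride synthesis 8 and 16 (-0.07) and of 17 genes of cholesterol synthesis 7 and 10 (-0.05). The HDL genes divided into 6 higher and 10 lower after quantile normalization or 75th percentile scaling. After quantile normalization the triglyceride-rich lipoprotein genes divided into 8 higher and 12 lower. CIDEB, a lipid droplet protein of very-low-density lipoprotein loading, read 2150.5, 2243.4, 2369.3 and 2779.2 under LacZ and 2075.4, 1448.9, 2146.3 and 1399.2 under GPI-PLD, apart by the smallest of gaps (-0.44 ± 0.14, adjusted p = 0.497). APOC3, an inhibitor of lipoprotein lipase, was lower without overlap at 3196.5 to 3536.8 against 2603.6 to 3191.9 (-0.25 ± 0.12). PON3, an HDL-bound lactonase, was higher without overlap at 1893.8 to 1946.1 against 2047.8 to 2857.4 (0.30 ± 0.12). In cholesterol synthesis FDPS, farnesyl diphosphate synthase, was higher without overlap at 7523.4 to 7953.1 against 8076.4 to 9429.8 (0.15 ± 0.07), and TM7SF2, a sterol reductase, lower without overlap at 1629.8 to 2072.4 against 1357.0 to 1600.0 (-0.27 ± 0.14). ELOVL6, which lengthens saturated fatty acids, read 1537.3 to 1793.7 and 1052.4 to 1658.4, overlapping (-0.29 ± 0.12).

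The panel of liver and lipid genes mostly had narrow intervals. Of 21 panel genes 17 passed the filter, and the values below are of those. For 12 of the 17 the whole 95% interval lay within 1.5-fold and for 16 within 2-fold. APOB, the structural protein of very-low-density lipoproteins, read 49640.9, 51389.4, 51301.6 and 51433.5 under LacZ and 49791.2, 51971.3, 54016.4 and 54759.5 under GPI-PLD, with an interval of 0.944 to 1.13-fold. ALB, albumin, read 80075.9 to 89917.0 and 78064.9 to 101093.2 (0.950 to 1.18-fold), and APOA1, the main protein of HDL, 24808.5 to 33702.4 and 23953.0 to 28423.1 (0.797 to 1.09-fold). All 3 overlapped. SCARB1, the HDL receptor, had an interval of 0.831 to 1.11-fold, ABCA1, the cholesterol exporter, 0.859 to 1.11-fold, MTTP, which loads lipid onto apolipoprotein B, 0.812 to 1.32-fold, and FASN, fatty acid synthase, 0.844 to 1.28-fold. IRS1, an adaptor of the insulin receptor, had 0.827 to 1.2-fold, the insulin receptor gene INSR 0.725 to 1.09-fold, and CPT1A, the gate of mitochondrial fatty acid entry, 0.810 to 1.25-fold. Intervals were wide for the dim genes: DGAT1, of the last step of triglyceride synthesis, 0.616 to 1.46-fold, SREBF1, the lipogenic transcription factor, 0.696 to 1.58-fold, PCK1, of gluconeogenesis, 0.614 to 1.46-fold, and PPARA, the fatty acid sensor, 0.412 to 1.22-fold.

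DDIT3 had the smallest p of the panel. DDIT3, which encodes CHOP, read 3720.8, 3365.7, 3410.5 and 3077.5 under LacZ and 4375.2, 5175.8, 3236.3 and 4731.3 under GPI-PLD, 1.27-fold higher with an interval of 1.03 to 1.56 (adjusted p = 0.664). GPI-PLD replicate 3 lay among the LacZ arrays. ATF3, a factor of the integrated stress response, read 1716.7 to 1833.6 and 1850.8 to 2053.2 and was the 1 panel gene whose arrays did not overlap (0.17 ± 0.18; 0.874 to 1.45-fold). Its 12 h arrays lay close together, and its SE is that of a fit over all 16 arrays. CEBPB, a factor of the acute phase response, read 22555.9 to 25784.9 and 22632.5 to 23794.8 (0.868 to 1.11-fold).

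**Figure D4:**
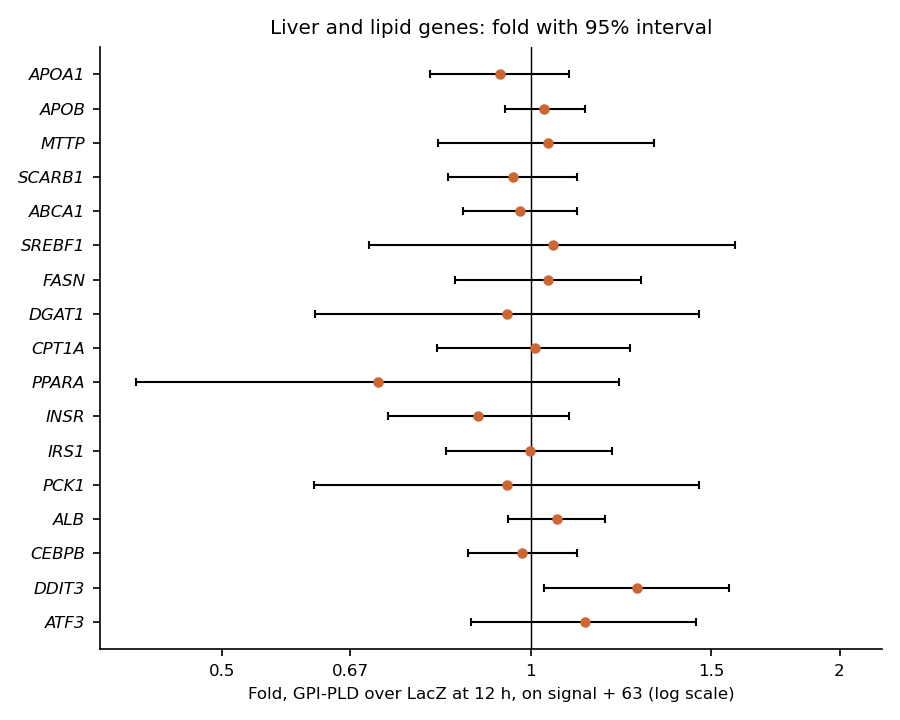
Fold of GPI-PLD over LacZ at 12 h on signal + 63 (x axis, log scale), with its 95% interval, for the 17 tested genes of the panel. The interval of DDIT3 (1.03 to 1.56) lies above 1, those of the other 16 genes include 1, and that of PPARA is the widest.

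The 6 h arrays, which share no array with the 12 h comparison, were used to see whether the leading genes differed earlier. Of the 30 genes with the smallest p at 12 h, 15 higher and 15 lower, 27 differed at 6 h by no more than 2 SE, and their 6 h differences ran from -0.43 to 0.37. At 6 h 8 had the sign they had at 12 h and 22 (73.3%) had the opposite sign. Over all tested genes the sign was opposite for 4483 of 8102 (55.3%), and for 385 of the 584 genes with an unadjusted p under 0.05 at 12 h (65.9%). HOXC11 stood at 0.20 ± 0.32 at 6 h, KLF12 at 0.15 ± 0.27, TFPT at -0.10 ± 0.27, PLAAT2 at -0.39 ± 0.44, COX7C at 0.07 ± 0.08 and SERPINA7 at -0.02 ± 0.11.

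The effect of the virus differed between the times for 1 gene of 8102, 0.0123%, by the interaction test of limma. This was TUBB2A, whose difference of -0.52 ± 0.11 at 12 h followed one of 0.37 ± 0.11 at 6 h (difference of effects -0.89 ± 0.15, adjusted p = 0.0384). That call was lost without any 1 of 12 of the 16 arrays, at an adjusted p of 0.0523 to 0.164, and kept, at 0.00169 to 0.0448, when the array left out was replicate 1 of LacZ at 6 h, replicate 1 of GPI-PLD at 6 h, or replicate 2 or 4 of GPI-PLD at 12 h. It was also lost with quantile normalization (0.0635), 75th percentile scaling (0.119), no filter (0.0669), the mean of probe sets (0.0557) and eBayes without trend and robust estimation (0.196), and when all probe sets were tested. EIF3L, at -0.52 ± 0.10 after 0.29 ± 0.10, came next to it (-0.81 ± 0.15, adjusted p = 0.0548) and passed when replicate 1 of either virus at 6 h was left out (0.037 for LacZ, 0.0217 for GPI-PLD). For the other leading genes the adjusted p of the difference between times was 0.376 for PLAAT2, ABAT and CIDEB and 0.466 for HOXC11, TFPT and SSH3.

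**Figure D5:**
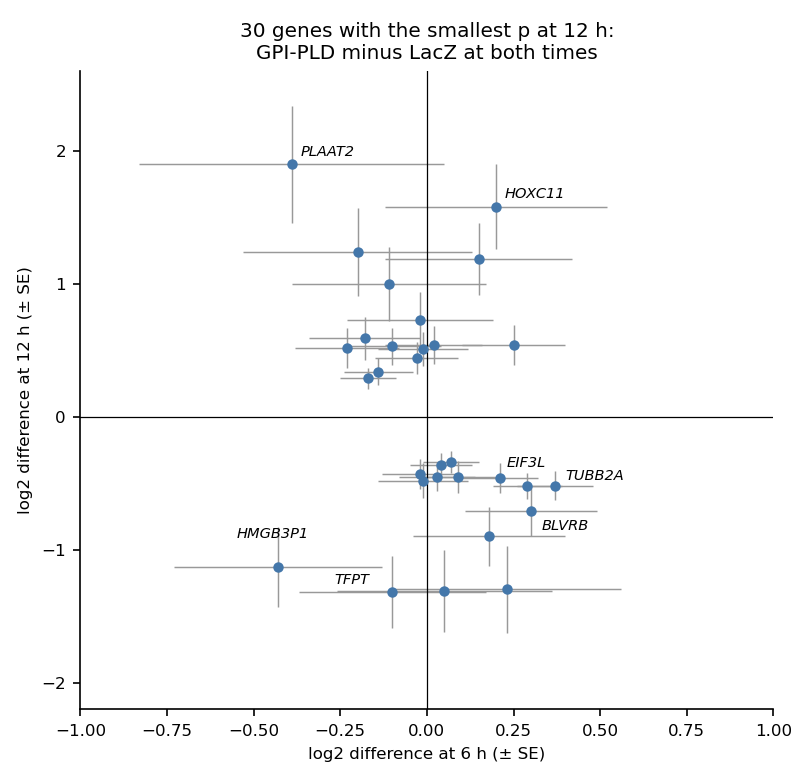
Log2 difference (GPI-PLD minus LacZ) at 12 h (y axis) against that at 6 h (x axis) for the 15 higher and 15 lower genes with the smallest p at 12 h, with standard errors as whiskers. The points lie within -0.43 to 0.37 at 6 h, and 22 of 30 have opposite signs at the 2 times.

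Genes read by more than 1 probe set allow a check within each array. Of 2465 tested genes with a second probe set above the filter, the second differed in the same direction for 1336 (54.2%), and among the 181 such genes with an unadjusted p under 0.05 for 104 (57.5%). Among the 30 leading genes 7 had other probe sets above the filter, 12 sets in all, of which 7 had the same sign and 5 the opposite. PPIL2, a nuclear cyclophilin, was 2.0-fold higher at the set tested (1.0 ± 0.28, 197.7 to 474.2 under LacZ and 515.3 to 1002.8 under GPI-PLD), while its other 2 sets above the filter gave 0.64 ± 0.51 and -0.30 ± 0.46. SDF4, a calcium-binding protein of the Golgi, read 1743.8 to 3041.3 and 3151.7 to 3680.0, apart (0.51 ± 0.13), with 0.15 ± 0.17 at its other set. Among 165 list members with the smallest p of their lists, 60 had other sets above the filter. These were 96 sets, 54 with the same sign and 42 with the opposite.

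The remaining leading genes by the naming rule had diverse roles. DRAM1, a lysosomal membrane protein of p53-linked autophagy, was higher at 780.3 to 1069.7 against 1137.3 to 1553.8, apart (0.54 ± 0.14). Of 40 autophagy and lysosome genes 15 were higher and 25 lower (median -0.02), or 19 and 21 after quantile normalization. MYOZ1, a muscle Z-disc protein, was higher from a dim signal (40.9 to 288.4 against 302.5 to 565.4, 1.24 ± 0.33). DDRGK1, an adaptor of protein UFMylation, overlapped through 1 LacZ array (2115.1 to 3633.5 against 3477.4 to 4197.6, 0.52 ± 0.15). OR7E37P, an olfactory receptor pseudogene, read 1668.6 to 1952.3 and 2115.6 to 2289.1, apart (0.34 ± 0.10). Higher as well, each without overlap, were S100A10, an annexin A2 partner (0.49 ± 0.15), DOCK1, an activator of Rac (0.46 ± 0.16), DHX32, an RNA helicase-like protein (0.42 ± 0.12), and TASOR2 (0.43 ± 0.14). For DOCK1 the groups were barely apart, GPI-PLD replicate 3 reading 886.8 and the highest LacZ array 884.3. TASOR2 read 3355.4 on GPI-PLD replicate 4 against 2005.1 to 2276.7 on the others, and its difference was 0.27 without that array and 0.12 with the mean of its probe sets.

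Lower genes included TMEM127, a membrane protein that restrains mTOR signalling, at 574.1, 627.4, 654.3 and 771.3 under LacZ and 135.4, 698.6, 214.4 and 107.0 under GPI-PLD. Its second GPI-PLD array lay among the LacZ arrays, and without it the difference of -1.30 ± 0.33 became -1.77 with an adjusted p of 0.00499. The pseudogene HMGB3P1 followed that form, with 511.5, 184.3, 81.1 and 133.8 under GPI-PLD against 382.4 to 713.9 under LacZ. Without its first GPI-PLD array its difference went from -1.13 ± 0.30 to -1.53, at an adjusted p of 0.0213. With other single arrays left out the smallest differences were -1.04 for TMEM127 and -0.86 for HMGB3P1. Over the settings tried their limma adjusted p rose to 0.622 and 0.695. ZDHHC6, a palmitoyltransferase of the endoplasmic reticulum, read 2457.4 to 3036.7 and 1691.9 to 2340.4, apart (-0.45 ± 0.12). BCL2L1, the survival protein BCL-X, read 3501.8 to 3971.3 and 2300.4 to 2937.3, apart (-0.50 ± 0.15), with -0.27 ± 0.20 and -0.09 ± 0.19 at its other sets above the filter. C2orf72 (-0.54 ± 0.16, and -0.56 ± 0.25 at its other set) and PEX19, a chaperone of peroxisomal membrane proteins (-0.48 ± 0.14, and 0.17 ± 0.22 at its other set), were lower without overlap.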

How the data were processed

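Expression was measured on 16 Affymetrix arrays of HepG2 cells, 4 per virus and time, and the 8 arrays of 12 h are compared here. The deposited values are intensities: the submitters' processing notes name MAS5, whose deposited signals are on a linear scale, and every array had a 2% trimmed mean of 1000.3 or 1000.4, so no rescaling was applied. The sources used here give no version or further step. No batch or replicate number is in the labels.

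Of 22283 probe sets 68 were controls. A single gene symbol belonged to 19065, several to 1043 and none to 2107 in the platform annotation, and gene IDs of 19053 were found in the RefSeq table, which changed 0 symbols. Values were analysed as log2(signal + 63), 63 being the 20th percentile of all signals. A gene was read by its brightest single-symbol probe set and tested if the mean reached the 40th percentile (signal 188.1), which left 8102 of 11963 genes. Limma 3.58.1 (R 4.3.3, statmod 1.5.0) fitted the 4 groups over all 16 arrays by lmFit and contrasts.fit, followed by eBayes (trend and robust on; residual degrees of freedom 12, median prior 10.5). GPLD1 was read in a fit of all 22215 probe sets. The number of arrays limits the precision. The steps were tested on simulated data. Python 3.11.15, pandas 2.3.3, numpy 2.4.6, scipy 1.17.1 and matplotlib 3.10.9 were used.

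The members, the 57 gene lists (1546 symbols, 1306 on the array and 1140 tested) and the rules were chosen with earlier results of these data known. Named by rule were GPLD1, the 15 higher and 15 lower genes with the smallest p, the 8 higher and 8 lower with the largest difference among genes that did not overlap and had a 12 h mean signal of at least 934.5 (the median gene), up to 3 leading members of each list and any member of lists with up to 20 tested genes, a panel of 21 genes, and genes with a called difference between times. Some further list members were named beyond the rule, after their values were seen. Alternatives were quantile normalization, 75th percentile scaling, no pseudocount or 4 times it, no filter or the 60th percentile, a gene's probe sets averaged, every probe set tested, plain eBayes, weighted arrays, the 12 h arrays alone, and each array left out in turn.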

Additional observations from a re-analysis of the deposited data

Results flagged for a closer look

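Among 120 groups of 4 arrays examined (the 2 viruses at 12 h for each named gene and GPLD1 probe set), 12 held an array far from the other 3. Chance flags about 1 group in 20. For the higher genes these were HOXC11, where LacZ replicate 4 read 259.4 and the others 81.2 to 93.7, PLAAT2, where LacZ replicate 2 read 201.9 and the others 45.5 to 65.6, and PPIL2, where GPI-PLD replicate 4 read 1002.8 and the others 515.3 to 581.1. SDF4 had GPI-PLD replicate 2 at 3151.7, below the 3602.6 to 3680.0 of the others.

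LacZ replicate 2 stood above the other LacZ arrays for TCEA1 (10998.4 against 10064.3 to 10193.4), RPL27A (2968.6 against 2316.0 to 2416.2), OR7E37P (1952.3 against 1668.6 to 1695.5) and TUBB2A (3903.9 against 3267.7 to 3354.0), and below them for PPARA (178.1 against 375.3 to 405.6). ABAT had LacZ replicate 3 at 6663.7 (others 5639.1 to 5743.4). APOB had LacZ replicate 1 at 49640.9 (others 51301.6 to 51433.5), and ABCA1 had it at 3328.4 (others 2981.8 to 3036.8). For TCEA1, RPL27A, OR7E37P, HOXC11 and PLAAT2 the far LacZ array lay toward the GPI-PLD arrays, and for TUBB2A and ABAT away from them.

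The effect of the virus on TUBB2A differed between 12 h and 6 h by -0.89 on the log2 scale, by the interaction test (adjusted p = 0.0384), a call that was lost under 6 other settings and without any 1 of 12 of the 16 arrays.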

How the results depend on the processing

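The count of genes called at 12 h was 0 under each alternative run on all arrays and ran from 0 to 2 with single arrays left out: HMGB3P1 without GPI-PLD 12 h replicate 1, PNPLA4 (-2.0, adjusted p = 0.00552) and TMEM127 without replicate 2, SSH3 without replicate 3 and TUBB2A without replicate 4, and 0 without any 1 LacZ array. Genes at an unadjusted p under 0.05 numbered 432 to 850 over the alternatives and 1502 when all 22215 probe sets were tested (0 called at 12 h). Virus by time, 1 gene was called as reported, 0 with quantile normalization, 75th percentile scaling, no filter, the mean of probe sets, all probe sets or eBayes without trend and robust, 2 (TUBB2A and EIF3L) with 4 times the pseudocount or the 60th percentile filter, and 0 to 3 with single arrays left out; fewer or more genes tested bear on the filters, and the cause was otherwise not tested.

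Of 979 values of 55 genes under alternatives, 943 kept their sign and side of the threshold, 4 newly passed (those with a single array left out, above) and 32, of 12 genes, turned sign. The GPLD1 probe sets, given below as well, are not in these counts. With the mean of probe sets COBLL1 went to 0.01 and ABCA1 to 0.18. With quantile normalization APOB went to -0.01, ALB to -0.03, IRS1 to 0.01 and the GPLD1 set 206266_at to -0.01, and with 75th percentile scaling IRS1 to 0.01. With array weights SREBF1 went to -0.01, IRS1 to 0.02 and PCK1 to 0.02. With single arrays left out MTTP ran from -0.01 to 0.17, ABCA1 from -0.10 to 0.02, SREBF1 from -0.18 to 0.36, FASN from -0.08 to 0.14, DGAT1 from -0.29 to 0.12, CPT1A from -0.04 to 0.08, IRS1 from -0.09 to 0.08, PCK1 from -0.32 to 0.17, CEBPB from -0.06 to 0.01, and the GPLD1 sets 206265_s_at from -0.71 to 0.01, 206266_at from -0.02 to 0.14, 215554_at from -0.44 to 0.14 and 217405_x_at from -0.18 to 0.29. Of 986 list medians 33, in 21 lists, moved by more than the spread between arrays. Actin filament regulators, tubulins, and fibroblast and stellate markers moved under 3 settings each. Fatty acid and triglyceride synthesis moved under 2, and its median was -0.01 without GPI-PLD 12 h replicate 1. Secreted plasma proteins, glycolysis and gluconeogenesis, and the HDL genes did not move by that measure. The median of secreted plasma proteins was -0.02 without GPI-PLD 12 h replicate 1. Without LacZ 12 h replicate 4 that of glycolysis and gluconeogenesis was -0.03 and that of the HDL genes -0.02. No paired analysis was possible because the labels give no replicate numbers.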

Other observations

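The median over all genes was 0.01 at 12 h. Genes of DNA replication had 18 higher and 30 lower of 48 (median -0.04), with TYMS, thymidylate synthase, at 0.24 ± 0.10 and PRIM2, a primase subunit, at -0.53 ± 0.19, and genes of mitosis 16 higher and 23 lower of 39 (median -0.02), with CENPF, a kinetochore protein, higher without overlap (1050.8 to 1265.6 against 1356.4 to 1755.1) and -0.17 ± 0.22 at its other probe set. Targets of p53 had 9 higher and 8 lower of 17 (median 0.02), and CDKN1A, the cell cycle inhibitor p21, differed by -0.14 ± 0.14. Interferon response genes had 17 of each sign among 34, with PML, a nuclear body protein, higher without overlap (271.8 to 647.3 against 649.1 to 717.5, 0.56 ± 0.23; other set 0.02 ± 0.24) and PSMB8, an immunoproteasome subunit, lower without overlap (527.7 to 686.6 against 129.8 to 526.7, -0.74 ± 0.26). Of 13 NF-kappaB and chemokine genes 11 were higher and 2 lower (median 0.12), led by CXCL8, interleukin 8, from a dim signal (0.60 ± 0.25), and none stood apart.

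Of 23 targets of NRF2, the oxidative stress factor, 16 were higher and 7 lower (median 0.05), with an unadjusted p under 0.05 for 4, all higher, beside 3.69% of all genes: the aldo-keto reductases AKR1B10 (6903.6 to 8779.8 against 8387.4 to 9994.5, 0.31 ± 0.10) and AKR1C1 (0.23 ± 0.07), MAFG (0.42 ± 0.16) and GCLM, of glutathione synthesis (0.30 ± 0.15). For GCLM 1 GPI-PLD array at 9296.4 stood above the others at 5357.8 to 5408.4. AKR1C1 belongs to a family of near-identical genes that a probe may not separate. Of 46 splicing factors 20 were higher and 26 lower (median -0.02). Without overlap 4 were lower, beside 1.85% of all genes: SNRPA1, of the U2 particle (2114.5 to 2610.1 against 1654.3 to 2042.2, -0.35 ± 0.13), U2AF2, which binds the polypyrimidine tract (-0.28 ± 0.13), HNRNPA1, a splicing repressor (-0.17 ± 0.08), and SNRPG, a core snRNP protein (-0.14 ± 0.08). SART3, of spliceosome recycling, was the 1 higher without overlap, beside 2.14%, and had opposite signs at its probe sets (0.42 ± 0.14, -0.32 ± 0.16 and -0.09 ± 0.14).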
